A study of Mus musculus with 2 samples.

Results

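The actin-bundling gene *Fscn1* and 8 genes of dendritic cell (DC) identity and maturation were described in M1-like bone marrow-derived macrophages (BMDMs) from FRβ KO and WT mice. The 9 genes, *Fscn1*, *Cacnb3*, *Cd83*, *Marcksl1*, *Il4i1*, *Dpp4*, *Zbtb46*, *Flt3* and *Batf3*, were picked by symbol from a table of 54532 gene identifiers, with the difference between the genotypes already known for some of them. That difference is therefore given as a description of these libraries, with no test. FRβ is folate receptor beta, the product of *Folr2*, a folate-binding protein of the macrophage surface.

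Both groups were M1-like BMDMs of male C57BL/6 mice. The FRβ KO mice carried a neomycin resistance gene inserted in *Folr2* and descended from SWV heterozygotes crossed to C57BL/6 mice, and the WT mice were bought as C57BL/6. The methods give 6 to 8 weeks as the age of purchased WT mice in general, and state no age for the FRβ KO marrow donors. Marrow cells of both genotypes were cultured with M-CSF at 20 ng/mL for 7 days, in regular RPMI medium according to the labels. Polarization then took 24 h with LPS at 1 ng/mL plus IFNγ at 20 ng/mL. The methods state that RNA of 3 mice was pooled per genotype, into 1 library each, so there was no replicate, and a difference of strain background, culture or library cannot be told apart from one of genotype. What FA_N in the sample names stands for is not stated.

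DCs are sampling cells until a microbial or cytokine signal makes them mature. Maturing DCs stop taking up antigen, extend actin-rich dendrites, display costimulatory molecules and migrate to the draining lymph node through the chemokine receptor CCR7. Fascin, encoded by *Fscn1*, packs actin filaments into the tight parallel bundles of filopodia and dendrites, and it is widely used as a marker of mature DCs. FLT3, ZBTB46 and BATF3 belong instead to the lineage programme that makes a cell a conventional DC (cDC). Macrophages grown in M-CSF and driven by IFNγ and LPS switch on many genes that maturing DCs also use, so transcripts of this kind do not by themselves name a cell.

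The FRβ KO library held 19742619 counts over 19090 detected genes and the WT library 18871271 counts over 18945. Of all identifiers, 14489 had at least 10 counts over both libraries and were measured. The targeted gene checked neither label, because *Folr2* had 2 counts in FRβ KO and 0 in WT. Macrophage markers were high in both libraries, with *Csf1r*, the M-CSF receptor, at 844 TPM in FRβ KO and 807 TPM in WT, and *Adgre1*, encoding F4/80, at 355 TPM in FRβ KO and 347 TPM in WT. The TPM unit corrects for both exon length and library size and allows levels of different genes to be set side by side. The CPM unit corrects for library size only, here scaled by TMM (trimmed mean of M values), and is used here to compare 1 gene between the libraries.

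Set side by side per exon length, the 9 genes ranged from well detected to barely detected. In FRβ KO the order by TPM was *Marcksl1* (89.1), *Cd83* (32.3), *Cacnb3* (11.7), *Fscn1* (9.56), *Batf3* (8.81), *Zbtb46* (2.07), *Il4i1* (0.238), *Flt3* (0.21) and *Dpp4* (0.102). In WT it was *Marcksl1* (80.2), *Cd83* (29.4), *Batf3* (6.79), *Cacnb3* (5.62), *Fscn1* and *Zbtb46* (2.75 each), *Il4i1* (0.166), *Flt3* (0.165) and *Dpp4* (0.0804). The 95% counting intervals of *Cacnb3* (10.4 to 13.2 TPM), *Fscn1* (8.21 to 11.1 TPM) and *Batf3* (7.06 to 10.9 TPM) overlapped between neighbours in FRβ KO. In WT that of *Fscn1* (2.04 to 3.64 TPM) overlapped that of *Zbtb46* (2.31 to 3.24 TPM) and lay below that of *Cacnb3* (4.7 to 6.66 TPM), which overlapped that of *Batf3* (5.23 to 8.67 TPM). The intervals of *Il4i1*, *Flt3* and *Dpp4* overlapped each other in both libraries. These intervals, and those of the ratios below, cover counting error only. Whether the reads carried molecular identifiers is not stated, so even counting error may be larger than these intervals show.

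Of the 9 genes, 8 reached 10 counts over both libraries, and *Dpp4*, with 4 counts in FRβ KO and 3 in WT, did not. By the ratio alone 7 of the 8 were higher in FRβ KO and 1 was lower, beside 49.0% and 51.0% of all measured genes. The ratio is that of the counts on the same scaled library sizes, FRβ KO over WT. Its whole 95% interval lay above 1 for 2 genes, below 1 for 1 gene and held 1 for 5. Among all 14489 measured genes the interval lay above 1 for 14.7% and below 1 for 16.8%. A stricter rule asked that the whole interval lie past 1.5-fold. *Fscn1* and *Cacnb3* passed it as higher and none of the 8 as lower, against 0.939% higher and 1.07% lower among all measured genes. Since the choice of the genes used this difference, nothing was read from those shares. The whole interval of *Fscn1* alone lay past 2-fold, where 0.311% of measured genes stood as higher.

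**Figure D1:**
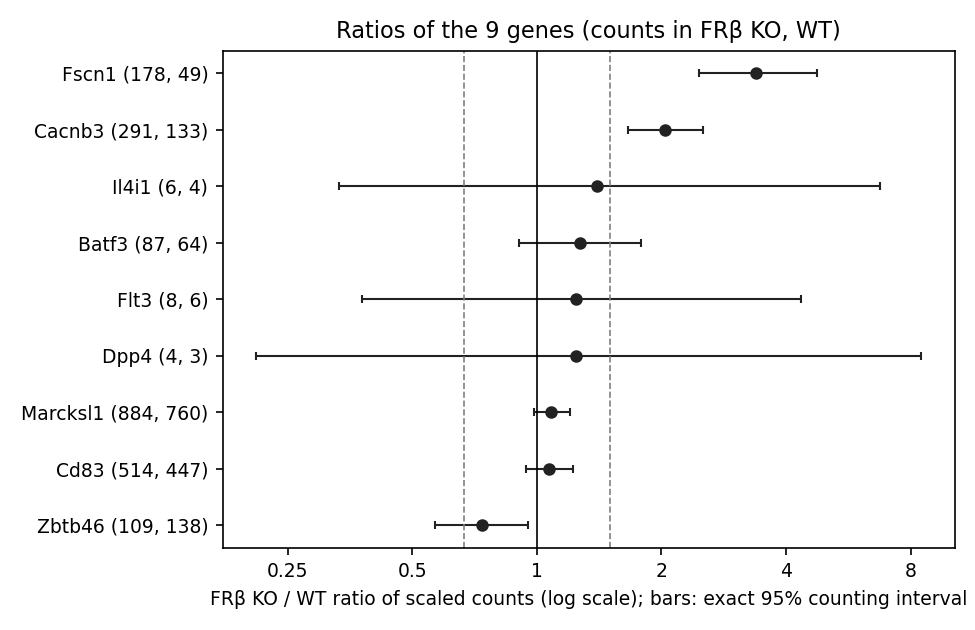
Ratio of FRβ KO to WT (log axis) for the 9 genes, with the 95% counting interval as bars, and lines at 1 and at 1.5-fold. The intervals of *Fscn1* (2.46 to 4.75) and *Cacnb3* (1.66 to 2.52) lay past 1.5-fold, that of *Zbtb46* lay below 1, and those of the other genes held 1.

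*Fscn1* (ENSMUSG00000029581, chr5:142960343-142973185 of mm10, plus strand) had 178 counts in FRβ KO and 49 in WT, which is 8.9 CPM (7.64 to 10.3) against 2.63 CPM (1.95 to 3.48). The intervals of the libraries did not overlap. The ratio was 3.39 (2.46 to 4.75), or 1.72 on the log2 scale with a prior count of 2. Ordered by the lower bound of the ratio, *Fscn1* stood at place 25 of the 14489 measured genes. No other annotated transcript shared 95% identity with it over at least 150 bp. As 1 of 9 genes it took 8.55% of their summed CPM in FRβ KO and 3.05% in WT.

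*Cacnb3* (ENSMUSG00000003352, chr15:98630840-98644529, plus strand) encodes the beta-3 subunit of voltage-gated calcium channels, which helps the pore-forming subunit reach the membrane. It had 291 counts in FRβ KO and 133 in WT, or 14.6 CPM (12.9 to 16.3) against 7.14 CPM (5.98 to 8.46), again without overlap. Its ratio was 2.04 (1.66 to 2.52), and it stood at place 93 by the lower bound. The summed level of *Fscn1* and *Cacnb3* was 23.5 CPM in FRβ KO and 9.77 CPM in WT. That difference of 13.7 CPM was most of the 18.0 CPM by which the summed level of all 9 genes differed, 104 CPM in FRβ KO against 86.1 CPM in WT.

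**Figure D2:**
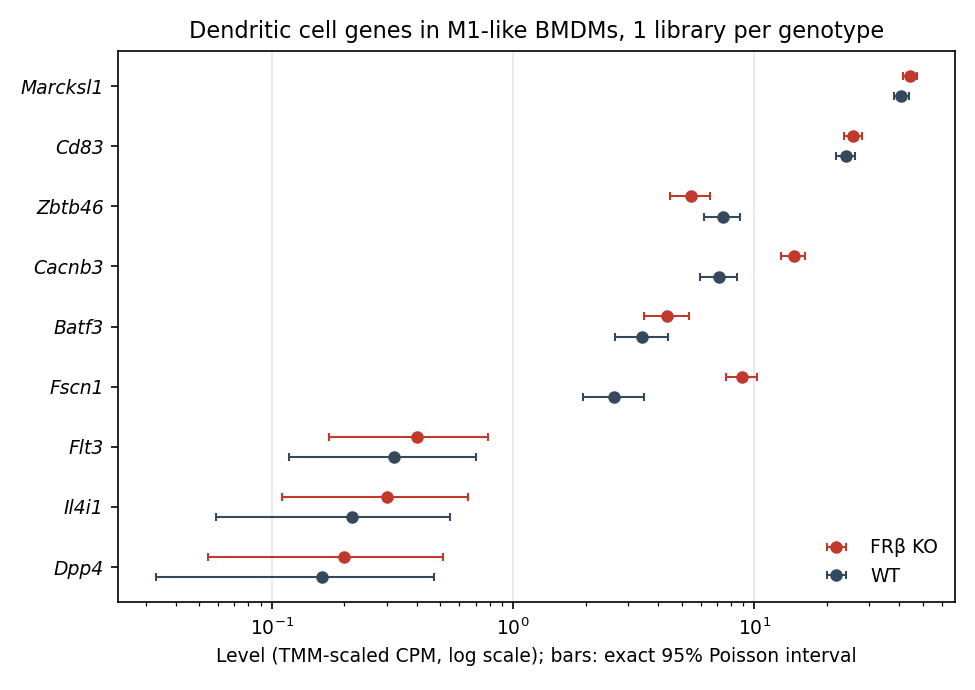
TMM-scaled CPM (log axis) of each of the 9 genes in the FRβ KO and the WT library, 1 pooled library each, with bars for the exact 95% counting interval. *Fscn1* stood at 8.9 CPM in FRβ KO against 2.63 CPM in WT and *Cacnb3* at 14.6 against 7.14 CPM, while the intervals of the libraries overlapped for each of the other 7 genes.

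The maturation genes with the highest levels differed little. *Cd83* (ENSMUSG00000015396, chr13:43784775-43803132, plus strand) encodes a surface protein of mature DCs that keeps MHC class II and CD86 on the membrane by opposing the ubiquitin ligase MARCH1. It had 514 counts in FRβ KO and 447 in WT, 25.7 CPM (23.5 to 28.0) against 24.0 CPM (21.8 to 26.3). The ratio was 1.07 (0.943 to 1.22). *Marcksl1* (ENSMUSG00000047945, chr4:129513581-129515985, plus strand) encodes a small relative of MARCKS that binds actin and the inner face of the membrane. Its 884 counts in FRβ KO and 760 in WT gave 44.2 CPM (41.4 to 47.2) against 40.8 CPM (37.9 to 43.8) and a ratio of 1.08 (0.983 to 1.2). The interval of *Marcksl1* held 1 with TMM, and lay above 1 when libraries were scaled by total counts (1.11, 1.01 to 1.23). For both genes the upper bound stayed under the 1.5-fold limit, so a difference of the size seen for *Fscn1* lay outside what counting error allows.

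The remaining genes of the maturation group were near the limit of detection. *Il4i1* (ENSMUSG00000074141, chr7:44816387-44840809, plus strand) encodes a secreted L-amino acid oxidase that consumes phenylalanine. It had 6 counts in FRβ KO and 4 in WT, with a ratio of 1.4 (0.332 to 6.74). Its value is uncertain for a second reason, since 83.9% of its exon bases also belong to exons of *Tbc1d17* on the other strand, which had 894 counts in FRβ KO and 782 in WT, and whether the counting used strand is not given in any source used here. *Dpp4* (ENSMUSG00000035000, chr2:62330073-62412231, minus strand) encodes the surface peptidase CD26, which trims chemokines and incretins. Its 4 counts in FRβ KO were 0.2 CPM (0.0545 to 0.512) and its 3 counts in WT were 0.161 CPM (0.0332 to 0.47). A count of 0 would allow up to 3 counts, which is 0.15 CPM in FRβ KO and 0.161 CPM in WT, so *Dpp4* lay at about that floor. No difference in *Il4i1* or *Dpp4* was detectable at this depth.

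Among the lineage genes, *Zbtb46* was lower in FRβ KO and the others could not be told apart from equal. *Zbtb46* (ENSMUSG00000027583, chr2:181387762-181459426, minus strand) encodes a zinc finger repressor that marks cDCs and their committed precursors among immune cells. It had 109 counts in FRβ KO and 138 in WT, 5.45 CPM (4.48 to 6.58) against 7.4 CPM (6.22 to 8.75). The ratio was 0.736 (0.567 to 0.954), which is 1.36-fold lower. The 2 libraries' own intervals overlapped, and a 99% interval of the ratio held 1. *Batf3* (ENSMUSG00000026630, chr1:191097847-191108945, plus strand) encodes the AP-1 family factor needed for the cDC1 subset. It had 87 counts in FRβ KO and 64 in WT, with a ratio of 1.27 (0.907 to 1.78). *Flt3* (ENSMUSG00000042817, chr5:147330741-147400489, minus strand) encodes the receptor tyrosine kinase through which FLT3 ligand expands DC progenitors. It had 8 counts in FRβ KO and 6 in WT, with a ratio of 1.24 (0.378 to 4.35). The interval of *Flt3* was too wide to tell a rise from a fall.

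Over the 8 measured genes the median log2 ratio was 0.29, beside -0.01 over all measured genes. That median lay between the values of *Flt3* (0.24) and *Batf3* (0.33), whose intervals both held 1. In bulk RNA a higher level of any of the 9 genes may come from more cells of a type or from more RNA per cell. The libraries cannot tell these apart. The cutoffs named in the study's methods, a p below 0.05 with a log2 fold change beyond 1, need an assumed spread when there is 1 library per genotype. At a coefficient of variation of 0.2, *Fscn1* and *Cacnb3* were among 218 genes that passed as higher in FRβ KO, which is 1.5% of those measured. At 0.4 there were 64 such genes (0.442%), and of the 9 only *Fscn1* passed. These counts rest on an assumed spread between mice and not on a measured one.

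Promoter windows, the 250 bases before each gene's start in RefSeq on GRCm38.p6, were searched on both strands for the letters of elements used by factors of maturing DCs and macrophages. *Fscn1*, *Cacnb3*, *Marcksl1*, *Batf3*, *Flt3*, *Zbtb46*, *Il4i1* and *Dpp4* had a window, and *Cacnb3* had a second start, which made 9 windows. The first sequences shown are those of *Fscn1* and *Cacnb3*, whose transcripts were both higher in FRβ KO, and the third is that of *Zbtb46*, which was lower. Capitals mark the interferon regulatory factor and AP-1 composite element in *Zbtb46*. The *Fscn1* window is chr5:142960105-142960354 (plus strand), and its last bases lie in the first exon of the GENCODE model. The windows of *Cacnb3* (chr15:98632078-98632327, plus strand) and *Zbtb46* (chr2:181424389-181424638, minus strand) lie inside the GENCODE gene, in intronic sequence before an internal start.
Fscn1: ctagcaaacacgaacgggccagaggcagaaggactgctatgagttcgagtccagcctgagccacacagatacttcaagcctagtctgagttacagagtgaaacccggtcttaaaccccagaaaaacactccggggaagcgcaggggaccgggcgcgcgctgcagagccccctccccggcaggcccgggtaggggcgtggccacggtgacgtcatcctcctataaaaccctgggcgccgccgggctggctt
Cacnb3: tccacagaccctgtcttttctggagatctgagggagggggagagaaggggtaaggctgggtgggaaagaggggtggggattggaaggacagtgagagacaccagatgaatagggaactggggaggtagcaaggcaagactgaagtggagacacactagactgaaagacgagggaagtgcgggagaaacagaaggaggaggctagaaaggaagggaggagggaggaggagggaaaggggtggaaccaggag
Zbtb46: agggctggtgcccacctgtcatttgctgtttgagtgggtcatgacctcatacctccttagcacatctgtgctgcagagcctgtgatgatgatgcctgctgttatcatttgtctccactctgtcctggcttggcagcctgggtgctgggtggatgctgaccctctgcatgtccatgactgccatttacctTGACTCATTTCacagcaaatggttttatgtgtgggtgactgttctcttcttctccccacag

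The NF-κB element, by its usual consensus, was found in 0 of the 9 windows, and in 3.9% of all 32851 promoter windows in the table. The AP-1 element TGANTCA was found in *Zbtb46* at position -61 from the internal RefSeq start (6.75% of all windows). There it is part of the composite element in capitals (0.1% of all windows). Whether transcripts begin at that internal start in these libraries was not tested. In the composite element BATF3 and JUN proteins bind together with IRF8 or IRF4. The PU.1 element GAGGAAG was found in *Batf3*, *Il4i1* and *Dpp4* (10.6% of all windows), at positions -153, -132 and -236. The windows of *Batf3* and *Il4i1* also lie inside the GENCODE gene, and that of *Dpp4* lies before it. The interferon response element, by its usual consensus, was found in *Dpp4* at position -52 (2.98% of all windows). None of these elements was found in the windows of *Fscn1*, *Cacnb3*, *Marcksl1* or *Flt3*, which says only that these letters do not stand there. Other elements were not searched for. A match is likewise a description of letters and not of binding.

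Genes next to *Fscn1* did not share its difference. Of 6 measured genes within 250 kb, 0 had an interval above 1 and 2 below 1, beside 14.7% and 16.8% of all measured genes. The log2 ratios of these 6 lay between -0.29 and 0.07. The measured gene with the nearest start, *Actb*, encoding beta-actin, starts 53.6 kb from that of *Fscn1*, on the other strand. It had 31388 counts in FRβ KO and 32662 in WT, with a ratio of 0.896 (0.882 to 0.91). *Fscn1* therefore differed in the other direction from the actin gene whose product it bundles.

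Around *Cacnb3*, 13 genes were measured. Of these, 4 had an interval above 1 and 1 below 1, beside 14.7% and 16.8% of all measured genes. *Adcy6*, encoding an adenylyl cyclase that makes cyclic AMP, starts 20.8 kb from the start of *Cacnb3*, on the other strand. It had 64 counts in FRβ KO and 18 in WT, with a ratio of 3.31 (1.94 to 5.94), and its exons do not overlap those of *Cacnb3*. *Adcy6* also belongs to the mature DC programme described below. *Ccnt1*, encoding cyclin T1 of the elongation factor P-TEFb, and *Kansl2*, encoding a chromatin complex subunit, also had intervals above 1, at smaller ratios. *Ccnt1* had 1557 counts in FRβ KO and 1241 in WT (ratio 1.17), and *Kansl2* had 889 counts in FRβ KO and 698 in WT (ratio 1.19). The antisense transcript *B130046B21Rik* completes the 4, with 14 counts in FRβ KO and 3 in WT and a wide interval (ratio 4.35, 1.21 to 23.6). Measured neighbours of *Il4i1* numbered 24, of *Zbtb46* 19, of *Marcksl1* 16 and of *Batf3* 15. *Flt3* had 4, *Dpp4* had 2 and *Cd83* had 1. Near these genes, 1 neighbour stood past 1.5-fold as higher and 2 as lower, beside 0.939% and 1.07% of all measured genes. The higher one was *Cpt1c*, encoding a brain carnitine palmitoyltransferase-like protein, near *Il4i1*, with 94 counts in FRβ KO and 30 in WT (ratio 2.92, 1.92 to 4.57). The lower ones were *Lck*, encoding a T cell kinase, near *Marcksl1*, with 10 counts in FRβ KO and 30 in WT (ratio 0.311, 0.136 to 0.653), and the antisense transcript *A230020J21Rik* near *Batf3*, with 1 count in FRβ KO and 10 in WT (ratio 0.0932, 0.00215 to 0.655). *Il4i1* itself lies 57.0 Mb from the targeted *Folr2* on chromosome 7, and none of the other 8 genes lies on that chromosome.

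**Figure D3:**
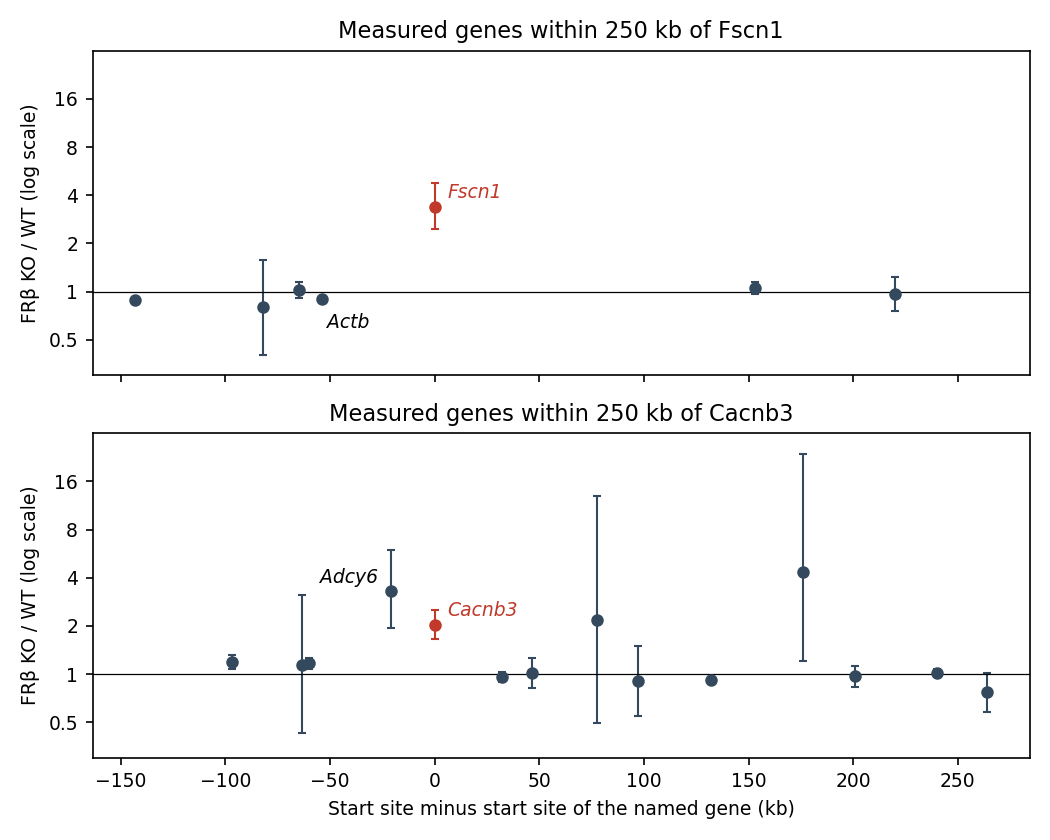
Ratio of FRβ KO to WT (log axis) for measured genes within 250 kb of *Fscn1* (upper panel) and *Cacnb3* (lower panel), by the distance between start sites in kb, with 95% counting intervals as bars. Neighbours of *Fscn1* lay near or below 1, and *Adcy6* lay at 3.31 beside *Cacnb3*.

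Relatives of the 9 genes were compared next. Of 20 paralogs and related genes, 17 were measured, 3 had an interval above 1 and 2 below 1 (17.6% and 11.8%, beside 14.7% and 16.8% of all measured genes), and none passed 1.5-fold. Their median log2 ratio was -0.01, with a sign that turned under other scalings. The other fascins were nearly silent, with *Fscn2*, the photoreceptor fascin, at 7 counts in FRβ KO and 4 in WT and *Fscn3*, the testis fascin, at 0 counts and 1 count. The other calcium channel beta subunits gave intervals that held 1, with *Cacnb1* at 240 counts in FRβ KO and 216 in WT (ratio 1.04, 0.858 to 1.25), *Cacnb2* at 12 in FRβ KO and 17 in WT, and *Cacnb4* at 26 in FRβ KO and 31 in WT. *Marcks* had 2543 counts in FRβ KO and 2338 in WT (ratio 1.01, 0.958 to 1.07), and *Batf* had 285 counts in FRβ KO and 245 in WT (ratio 1.08, 0.911 to 1.29). *Batf2*, which can stand in for BATF3 in mice, was slightly lower (1411 counts in FRβ KO and 1441 in WT, ratio 0.913, 0.848 to 0.983). The tryptophan-consuming enzyme gene *Ido1*, set beside *Il4i1* for its immunosuppressive role, had 65 counts in FRβ KO and 38 in WT, with a ratio of 1.59 (1.05 to 2.45). Its paralog *Ido2* had 28 counts in FRβ KO and 14 in WT (ratio 1.86, 0.949 to 3.83). Among the peptidases related to *Dpp4*, the lysosomal *Dpp7* was lower (603 counts in FRβ KO and 640 in WT, ratio 0.878, 0.785 to 0.983). The intracellular *Dpp8* and *Dpp9* had ratios of 0.983 (0.919 to 1.05) and 0.991 (0.917 to 1.07), and *Fap*, the peptidase of activated fibroblasts, had 12 counts in FRβ KO and 20 in WT. *Zbtb20*, encoding a zinc finger repressor of the same class as ZBTB46, was higher (720 counts in FRβ KO and 554 in WT, ratio 1.21, 1.08 to 1.36). Of the receptor kinases related to FLT3, *Csf1r* had 30125 counts in FRβ KO and 27506 in WT, with a ratio of 1.02 and an interval just above 1. The others were rare, with *Kit* at 5 counts in each library, *Pdgfrb* at 12 in FRβ KO and 23 in WT, and *Pdgfra* at 0 in FRβ KO and 5 in WT.

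Ligands and partners of the 9 gene products were lower more often than higher, and none had its whole interval past 1.5-fold. Of 19 measured among 23, 1 had an interval above 1 and 11 below 1 (5.26% and 57.9%, beside 14.7% and 16.8% of all measured genes), and the median log2 ratio was -0.11. These genes were abundant, with a median of 112 TPM in FRβ KO and 134 TPM in WT, so that small differences cleared 1. *Irf8*, encoding the factor that pairs with BATF3, had 12268 counts in FRβ KO and 15748 in WT (ratio 0.726, 0.709 to 0.744). *Jun* and *Jund*, encoding dimer partners of BATF3, had ratios of 0.819 and 0.768. *March1*, whose product CD83 opposes, was the gene above 1 (3449 counts in FRβ KO and 2815 in WT, ratio 1.14). Chosen after their values were seen, *Flt3l*, the ligand of FLT3, had 61 counts in FRβ KO and 46 in WT (ratio 1.24, 0.829 to 1.85), and *Cacna1d*, a pore-forming channel subunit, had 412 counts in FRβ KO and 440 in WT (ratio 0.873). *Csf2*, encoding GM-CSF, the cytokine that drives marrow cultures toward DC-like cells, had 0 counts in both libraries.

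The actin genes were divided in direction. Of 30 genes of actin bundling and filopodia, 27 were measured, 7 had an interval above 1 and 11 below 1 (25.9% and 40.7%, beside 14.7% and 16.8% of all measured genes), and the median log2 ratio was -0.04. Their median level was 64.0 TPM in FRβ KO and 64.8 TPM in WT, so their intervals were narrower than those of most genes. The summed level was 6320 CPM in FRβ KO and 6700 CPM in WT. Higher were *Myo10*, a motor of filopodial tips (2296 counts in FRβ KO and 1672 in WT, ratio 1.28, 1.2 to 1.36), *Lsp1*, a leukocyte actin-binding protein (ratio 1.22), and *Lcp1*, encoding the leukocyte bundler L-plastin (15051 counts in FRβ KO and 12830 in WT, ratio 1.09). Lower were *Espn*, encoding the bundler espin (61 counts in FRβ KO and 106 in WT, ratio 0.536, 0.385 to 0.742), *Cttn*, encoding cortactin (989 counts in FRβ KO and 1510 in WT, ratio 0.611, 0.563 to 0.662), and *Evl*, an Ena/VASP protein (ratio 0.689). *Cttn* was the 1 gene of the list past 1.5-fold, where 1.07% of all measured genes stood as lower. Of the other bundlers and crosslinkers of the list, given here after their values were seen, the alpha-actinin gene *Actn1* was lower (1831 counts in FRβ KO and 1948 in WT, ratio 0.876, 0.822 to 0.934), and *Actn4* (ratio 1.03, 0.995 to 1.07) and the plastin gene *Pls3* (ratio 1.04, 0.895 to 1.21) had intervals that held 1.

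A list of 48 further genes of the mature DC programme held 45 measured ones. Their interval lay above 1 for 24 and below 1 for 10, which is 53.3% and 22.2%, beside 14.7% and 16.8% of all measured genes. The listed genes were also more abundant, with a median of 30.9 TPM in FRβ KO and 28.2 TPM in WT against 12.5 TPM in FRβ KO and 12.2 TPM in WT over all measured genes, so their intervals were narrower and more easily cleared 1. Past 1.5-fold there were 4 higher and 0 lower, beside 0.939% and 1.07% of all measured genes. The list was chosen with earlier results of these data known. The median log2 ratio was 0.12, but the summed level was 8970 CPM in FRβ KO and 9210 CPM in WT, a sum led by *Cd274*, which was lower.

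The 4 genes past 1.5-fold were *Adcy6*, *Stat4*, *Il12b* and *Ccr7*, the last named because it completes the count. *Stat4*, encoding the transcription factor activated by interleukin-12, had 76 counts in FRβ KO and 25 in WT (ratio 2.83, 1.78 to 4.65). *Il12b*, encoding the p40 chain shared by interleukin-12 and interleukin-23, had 533 counts in FRβ KO and 253 in WT (ratio 1.96, 1.69 to 2.29). *Ccr7* had 482 counts in FRβ KO and 245 in WT (ratio 1.83, 1.57 to 2.15). Thus *Fscn1* was higher together with the receptor that guides mature DCs to lymph nodes, while *Cd83* was not shown to differ.

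Other genes of the programme were lower in FRβ KO. *Ccl22*, encoding a chemokine that draws CCR4-bearing T cells, had 552 counts in FRβ KO and 735 in WT (ratio 0.7, 0.626 to 0.783). *Pdcd1lg2*, encoding the checkpoint ligand PD-L2, had 374 counts in FRβ KO and 522 in WT (ratio 0.668, 0.583 to 0.764), and *Serpinb9*, encoding the granzyme B inhibitor, had 4402 counts in FRβ KO and 5550 in WT (ratio 0.739, 0.711 to 0.769). By abundance the programme was led by *Cd274*, encoding PD-L1, at 84203 counts in FRβ KO and 84603 in WT (ratio 0.928, 0.919 to 0.937). *Tnfaip2* (ratio 1.01, 0.997 to 1.03), *Cxcl16*, encoding a membrane-bound chemokine (1.09), *Fabp5*, encoding a fatty acid-binding protein (0.932), and *Cd63*, encoding a tetraspanin of endosomes (0.819), followed. Within the programme the largest differences were thus among genes of low or moderate level, and the abundant ones stayed within 1.5-fold.

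**Figure D4:**
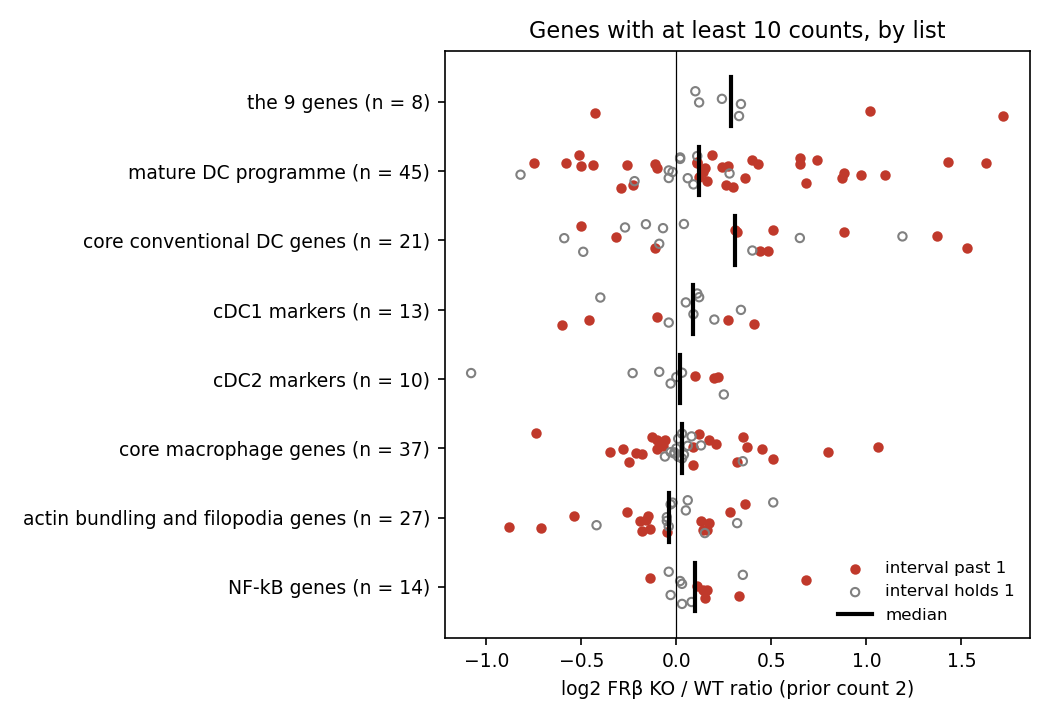
Log2 ratio of FRβ KO to WT with a prior count of 2 for the measured genes of 8 lists, 1 point a gene, filled where the 95% counting interval lay past 1 and open where it held 1, with the median as a bar. The median was 0.31 for the core conventional DC genes and 0.29 for the 9 genes (8 measured). It was 0.12 for the mature DC programme and -0.04 for the actin genes.

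Genes of the NF-κB pathway, which switches on much of the maturation programme, were all measured. Of 14, 7 had an interval above 1 and 1 below 1 (50% and 7.14%, beside 14.7% and 16.8% of all measured genes), none passed 1.5-fold, and the median log2 ratio was 0.10. Their median level was 79.8 TPM in FRβ KO and 73.0 TPM in WT, above that of all genes. *Nfkb1*, *Nfkb2*, *Relb*, *Traf1* and *Birc3* are also counted in the mature DC programme. *Traf1*, encoding a signalling adaptor and NF-κB target, had 1417 counts in FRβ KO and 823 in WT (ratio 1.61, 1.47 to 1.75). *Rel*, encoding the subunit c-Rel, had 1163 counts in FRβ KO and 865 in WT (ratio 1.25, 1.15 to 1.37), and *Birc3*, encoding a ubiquitin ligase, had 3108 counts in FRβ KO and 2616 in WT (ratio 1.11). *Icam1*, encoding an adhesion molecule, was the gene below 1 (3521 counts in FRβ KO and 3628 in WT, ratio 0.905).

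Markers of DC lineages were set beside these values. Of 24 core cDC genes, 21 were measured, 8 had an interval above 1 and 3 below 1 (38.1% and 14.3%, beside 14.7% and 16.8% of all measured genes), and 2 were past 1.5-fold as higher, as were 0.939% of all measured genes. Their median log2 ratio was 0.31, beside 0.29 for the measured genes of the 9. With a filter of at least 50 counts over both libraries these medians were 0.18 and 0.22. Their summed level was 1810 CPM in FRβ KO and 1780 CPM in WT. *P2ry10*, encoding a lysophospholipid receptor, had 53 counts in FRβ KO and 18 in WT (ratio 2.75, 1.58 to 4.98). *Adam19*, a metalloproteinase gene named to complete the count past 1.5-fold, had 35 counts in FRβ KO and 10 in WT. *Gpr132* (ratio 1.4) and *Tbc1d8* (ratio 1.43) were also higher. *Itgax*, encoding the integrin CD11c, was lower, with 5346 counts in FRβ KO and 7043 in WT (ratio 0.708, 0.683 to 0.733), and so were *Pstpip1* (0.801) and *Ass1*, encoding argininosuccinate synthase (0.929).

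Of 16 cDC1 markers, 13 were measured, with 2 above 1 and 3 below 1 (15.4% and 23.1%, close to the 14.7% and 16.8% of all measured genes), and a summed level of 1370 CPM in FRβ KO and 1550 CPM in WT. *Clec9a*, encoding the receptor by which cDC1s sense dead cells, had 339 counts in FRβ KO and 237 in WT (ratio 1.33, 1.13 to 1.58), and *Id2* had a ratio of 1.21. *Irf8*, *Cadm1*, an adhesion molecule gene (ratio 0.653, 0.493 to 0.863), and *Rab7b* (0.935) were lower. Of 12 cDC2 markers, 10 were measured, with 3 above 1 (30%) and 0 below 1, and a summed level of 1480 CPM in FRβ KO and 1400 CPM in WT. The higher ones were *Notch2* (1.15), *Cd1d1* (1.16) and *Klf4* (1.08), while *Cd209a*, a defining marker, had 0 counts in both libraries. Of 10 plasmacytoid DC markers 5 were measured, and *Siglech*, *Ly6d*, *Klk1* and *Spib* had 0 counts in both. *Tcf4* (447 counts in FRβ KO and 518 in WT, ratio 0.804) and *Bst2* (0.949) were lower and *Runx2* was higher (1.21). The part of DCs in the level of *Fscn1* was not tested.

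Macrophage genes were divided in direction. Of 38 core macrophage genes, 37 were measured, and 14 had an interval above 1 and 11 below 1 (37.8% and 29.7%, beside 14.7% and 16.8% of all measured genes). Their median level was 75.3 TPM in FRβ KO and 71.8 TPM in WT, with a median log2 ratio of 0.03 and a summed level of 13400 CPM in both libraries. *Ltc4s*, encoding leukotriene C4 synthase (308 counts in FRβ KO and 137 in WT, ratio 2.1, 1.71 to 2.58), and *Cd14*, encoding the LPS co-receptor (11218 counts in FRβ KO and 6017 in WT, ratio 1.74, 1.68 to 1.79), were past 1.5-fold as higher. Of all measured genes, 0.939% were past that limit as higher and 1.07% as lower. *Abca1*, encoding a cholesterol exporter, had a ratio of 1.43. *Myo7a*, encoding an unconventional myosin, was past 1.5-fold as lower (878 counts in FRβ KO and 1366 in WT, ratio 0.599), and *Fcgr1*, encoding CD64 (0.786), and *Tspan14* (0.838) were lower within that limit. *Adgre1* had a ratio of 0.999 (0.966 to 1.03).

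Markers of other cells were also summed. For 12 neutrophil markers the sums were 194 CPM in FRβ KO and 205 CPM in WT. Most of this was *Mmp8*, encoding a collagenase, with 2909 counts in FRβ KO and 2776 in WT (ratio 0.977, 0.927 to 1.03), at 194 TPM in each library. The defining markers *Retnlg* and *Ngp* had 0 counts in both, and *Ly6g* had 3 in FRβ KO and 0 in WT. *S100a8* had 407 counts in FRβ KO and 652 in WT (ratio 0.582, 0.513 to 0.66), and *Csf3r* had 541 counts in FRβ KO and 360 in WT (ratio 1.4). For 12 T and NK cell markers, 8 of them at 0 in both, the sums were 1.7 CPM in FRβ KO and 3.11 CPM in WT. For 8 B cell markers, 6 of them at 0 in both, they were 0.6 CPM in FRβ KO and 1.18 CPM in WT, and for 7 mast cell and basophil markers, 5 at 0 in both, 2.9 CPM in FRβ KO and 4.61 CPM in WT. The 10 stromal and endothelial markers summed to 20.2 CPM in FRβ KO and 25.2 CPM in WT, and the 7 erythroid markers, 5 at 0 in both, to 0.8 CPM in FRβ KO and 0.268 CPM in WT. The stromal and endothelial sum was led by *Kdr*, encoding a VEGF receptor (243 counts in FRβ KO and 306 in WT, ratio 0.74, 0.623 to 0.879), while *Pecam1* (ratio 1.12, 0.739 to 1.71) and *Cdh5* (ratio 1.2, 0.711 to 2.04) had intervals that held 1. Fascin is also made by endothelial and some stromal cells, and the part of these cells in the level of *Fscn1* was not tested.

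Protein-coding genes with at least 500 counts in each library came nearest to *Fscn1* in log2 ratio as follows, over 1 library per genotype. *Il1b*, encoding interleukin-1 beta, had 1625 counts in FRβ KO and 751 in WT, a ratio of 2.02 and a distance of 0.75 from *Fscn1* on the log2 scale. *Clec4e*, encoding the receptor Mincle, had 7080 counts in FRβ KO and 3672 in WT (ratio 1.8, distance 0.91), and *Ptgs2*, encoding cyclooxygenase-2, had 4364 counts in FRβ KO and 2325 in WT (ratio 1.75, distance 0.95). *Rpl30*, a ribosomal protein gene with 1018 counts in FRβ KO and 525 in WT (ratio 1.81, distance 0.91), is uncertain because ribosomal protein genes have many near-identical pseudogenes. All 4 ratios were smaller than that of *Fscn1*, which itself had 178 counts in FRβ KO and 49 in WT, under that count limit. Genes with fewer counts came nearer in ratio, among them *Adcy6* (3.31) and *Adam19* (3.26).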

How the data were processed

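RNA of M1-like BMDMs was sequenced as 150 bp paired-end reads, with 1 pooled library per genotype. The authors' provider aligned the reads to mm10 with HISAT2, and the deposited table holds raw counts per gene. How reads were assigned to genes, with which annotation and with which strand setting, is not stated in any source used here. Symbols, coordinates and exon lengths came from GENCODE M21, which lacked 37 of the 54532 identifiers.

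TMM scaling (edgeR 4.0.16, R 4.3.3) gave a ratio of effective library sizes, FRβ KO over WT, of 1.07. Each FRβ KO/WT ratio has an exact (Clopper-Pearson) 95% interval from its pair of counts (Python 3.11.15, scipy 1.17.1). A gene was measured when its counts in both libraries summed to 10 or more. With 1 library per genotype no p-value is given. TPM used the union of exons, and log2 ratios a prior count of 2. Copies were searched with blastn 2.17.0. The interval rule was tested on simulated data that held counting error only, with no variation between mice, cultures or libraries. The study's cutoffs used the exact test of edgeR at assumed coefficients of variation of 0.1, 0.2 and 0.4, only to count genes.

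The 9 genes and all gene lists were chosen with earlier results of these data known. Besides these genes, the text names of each list up to 3 genes higher and 3 lower, by the bound nearest to 1, with an interval past 1 and at least 50 counts in a library, the detected family relatives, *Folr2*, the 4 genes nearest to *Fscn1* in ratio, and the 5 most abundant genes of the mature DC programme. Others are named to complete a count, as neighbours or as cell markers, after their values were seen. Alternatives were total-count, upper quartile and DESeq2 1.42.0 scaling, other count filters, prior counts, intervals and fold limits, and sums with overlapping copies.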

Additional observations from a re-analysis of the deposited data

How the results depend on the processing

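Of 146 values recomputed under the alternatives, 143 were labelled the same as under the main settings, a label that allowed for small shifts. With total counts, core macrophage genes with an interval below 1 went from 11 to 8. Actin genes with an interval below 1 went from 11 to 9, and the actin median log2 ratio from -0.04 to 0.0. Some single genes of the lists thus changed their side of 1. Over the 4 scalings the ratio was 3.39 to 3.47 for *Fscn1*, 2.04 to 2.09 for *Cacnb3* and 0.736 to 0.755 for *Zbtb46*. The median log2 ratio of the measured genes of the 9 was 0.29 to 0.32 over these scalings. It moved more with the other settings, to 0.24 with at least 1 count and 0.22 with at least 50 counts. At a prior count of 5 it was 0.21, and at a smaller prior count than the main one it was 0.32. The median over all genes was -0.01 with TMM and up to 0.03 with total counts. The other 3 values are counts that move with the limit that defines them. With a 2-fold limit 1 gene (*Fscn1*) was past it as higher, with a limit of 1 there was 1 gene (*Zbtb46*) past it as lower, and at a coefficient of variation of 0.4 there was 1 gene (*Fscn1*) past the study's cutoffs. Summed with *Tbc1d17*, *Il4i1* had a ratio of 1.07 (0.969 to 1.18). No paired analysis was possible because each genotype has 1 library. Variation between mice, cultures and libraries was not measured, and genes with few counts, such as *Il4i1*, *Flt3* and *Dpp4*, could differ severalfold without being detectable.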
